A study of Homo sapiens and Mus musculus with 21 samples.

Results

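The messenger RNA of HEK293T cells that lack PCIF1 was compared with that of wild-type (WT) HEK293T cells, gene by gene, in the RNA libraries sequenced as the input of a ribosome profiling experiment. HEK293T is a transformed human embryonic kidney line. The comparison used 5 of the 21 libraries of the study: 3 labelled PCIF1 KO (knockout) and 2 labelled WT, with no treatment named for either group. The labels give cytoplasmic RNA, extracted with Trizol and enriched for polyadenylated RNA by repeated oligo(dT) selection, and they do not say whether replicates came from separate cultures or whether the KO line is 1 clone. P-values therefore cover the variation among these particular libraries, part or all of which can be technical. Of 58381 genes in the count table, 14629 had enough counts to be tested, and 1396 of these could be given a name. Every change was also set against each WT library by itself, because the WT libraries differed from each other more than the KO libraries did.

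PCIF1 is a methyltransferase that binds the phosphorylated tail of RNA polymerase II. When a transcript begins with an adenosine that already carries a 2'-O-methyl group next to the cap, PCIF1 adds a methyl group to the N6 position of that base and so makes m6Am. The same N6 mark inside transcripts, m6A, is made by a different enzyme complex built on METTL3. Transcripts that begin with C, G or T (U in the RNA) cannot carry m6Am, and the authors' tables class each listed gene by its start: m6Am, A, C, G or T.

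The first transcribed base is where PCIF1 acts, so the starts of 6 genes whose levels are described below are shown, taken from RefSeq on GRCh38.p14. Each run holds 10 bases before the annotated start and 15 from it, 5′ to 3′ on the gene's strand, with the start base in capitals.
RNF213: ccagggccccGtgacccgaggggcg
AP2B1: gcagtggcttAgacctagaaaagaa
MACF1: tctccttcagAtcacttctccctgg
RARS1: gcttccgtccActtggcgagtgaga
CDK1: ctttttctctAgccgccctttcctc
TNPO1: gattctctttGttccgcagccattt
RNF213 (chr17:80260842-80260866, plus strand) begins with G and is in the authors' G class, so it has no adenosine for PCIF1 at this start. AP2B1 (chr17:35587312-35587336, plus strand) and RARS1 (chr5:168486461-168486485, plus strand) begin with A and are in the m6Am class. MACF1 (chr1:39084157-39084181, plus strand) and CDK1 (chr10:60778321-60778345, plus strand) also begin with A, but the authors class them as A without m6Am. TNPO1 (chr5:72816651-72816675, plus strand) is in the m6Am class although the RefSeq start base is G. RefSeq gives 1 start per gene, and over all m6Am genes with a RefSeq start 219 of 423 (51.8%) had A there, against 126 of 326 (38.7%) in the A class and 44.3% of 27305 RefSeq promoters. The authors' class and the annotated base are therefore different measures of the start.

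The KO libraries held 5842630, 5638480 and 4511687 counts, and the WT libraries held 5960674 and 5386307. A count of 3 corresponded to 0.503 to 0.665 CPM (the count scaled to a fixed library total), which is the precision limit for scarce transcripts. This limit covers counting error only. Levels below are CPM scaled by TMM factors, which correct for differences in library composition. A CPM is a share of the library, so a lower value from fewer cells that make a transcript cannot be told apart from less of it per cell. PCIF1 itself had no name in the files that could be matched to an identifier, so its level is not analysed here and the genotype labels were not checked by it. Of 10 genes listed as markers of the line, 3 could be named, and all 3 are given. IRS4, an insulin receptor substrate that HEK293 cells express highly, had 439, 512 and 513 CPM in KO and 561 and 497 CPM in WT. VIM, the intermediate filament vimentin, had 372, 344 and 369 CPM in KO and 378 and 341 CPM in WT. LIN28B, a repressor of let-7 microRNA processing, had 30.8, 27.3 and 29.3 CPM in KO and 19.3 and 22.1 CPM in WT. The levels of these 3 genes fit the labelled line in both groups. None of the listed markers of neurons, fibroblasts, blood and endothelium or hepatocytes could be named, and their part in the results was not tested.

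Few transcripts could be called as different between KO and WT with these libraries. With edgeR's quasi-likelihood test and Benjamini-Hochberg adjustment, 5 genes were lower in KO (0.0342% of the genes tested) and 0 were higher, and none of the 5 could be named. Without adjustment, 906 genes were lower (6.19%) and 454 higher (3.1%) at a p under 0.05. DESeq2's Wald test called 13 genes lower (0.0889%) and 2 higher (0.0137%). All 5 genes called by edgeR lay below both WT libraries in every KO library, with log2 ratios of the KO mean of -3.31 to -1.0 over WT replicate 1 and -2.03 to -0.93 over WT replicate 2. Among named genes, edgeR called 0, with 97 lower (6.95%) and 85 higher (6.09%) at an unadjusted p under 0.05, and DESeq2 called RNF213 lower and 0 named genes higher.

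One of the called genes was ENSG00000101871.14. It had 61.8, 38.7 and 60.7 CPM in KO and 161 and 145 CPM in WT, so that the highest KO library was far below the lower WT library. Its log2 fold change was -1.51 ± 0.17 (SE, edgeR adjusted p = 0.00814), or -1.58 over WT replicate 1 and -1.42 over WT replicate 2. Of the genes that were higher in KO, ENSG00000213468.5 had 119, 89.2 and 144 CPM in KO and 56.8 and 70.2 CPM in WT. The groups did not overlap for it, but its log2 fold change of 0.88 ± 0.18 did not pass (edgeR adjusted p = 0.256). It did pass with DESeq2 (adjusted p = 0.00555) and without WT replicate 1 (edgeR adjusted p = 0.000627). The files used here give no name for either identifier.

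Against each WT library apart, the KO mean differed much more from WT replicate 1 than from WT replicate 2. Over all genes, 1150 were at least 1.5-fold lower and 1136 at least 1.5-fold higher than WT replicate 1, against 415 and 354 for WT replicate 2. Both criteria together left 181 genes lower and 89 higher. For 6218 of the 14629 genes the ratio had opposite signs over the 2 WT libraries. For the named genes, which the authors' tables had selected, the SD of the log2 ratios was 0.374 over WT replicate 1 and 0.155 over WT replicate 2, beside 0.423 and 0.288 for all genes. With a prior of 2 CPM in place of 0.5 CPM it was 0.357 over WT replicate 1 for both sets of genes. A single named gene was at least 1.5-fold lower than both WT libraries and 0 were higher than both. This was USP27X, a deubiquitinase gene on chromosome X that is named here after its values were seen, with 6.94, 5.81 and 3.8 CPM in KO and 12.3 and 8.55 CPM in WT. Its log2 fold change of -0.90 ± 0.29 did not pass (edgeR adjusted p = 0.488), and with a prior of 2 CPM or with plain library totals 0 named genes were that much lower than both.

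The named genes with the strongest evidence for a lower level came from a few chromosomes. The 10 with the smallest unadjusted p among those below both WT libraries in all KO libraries were RNF213, AP2B1, LIG3, ATP2B4, MACF1, ARID3A, AMOT, NBR1, SEC14L1 and IGF2BP1. Of these, 6 lie on chromosome 17, which holds 84 of the 1396 named genes (6.02%), and 0 of the 10 leading higher genes lie there. None of the 20 passed the adjustment over all genes with edgeR.

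**Figure D1:**
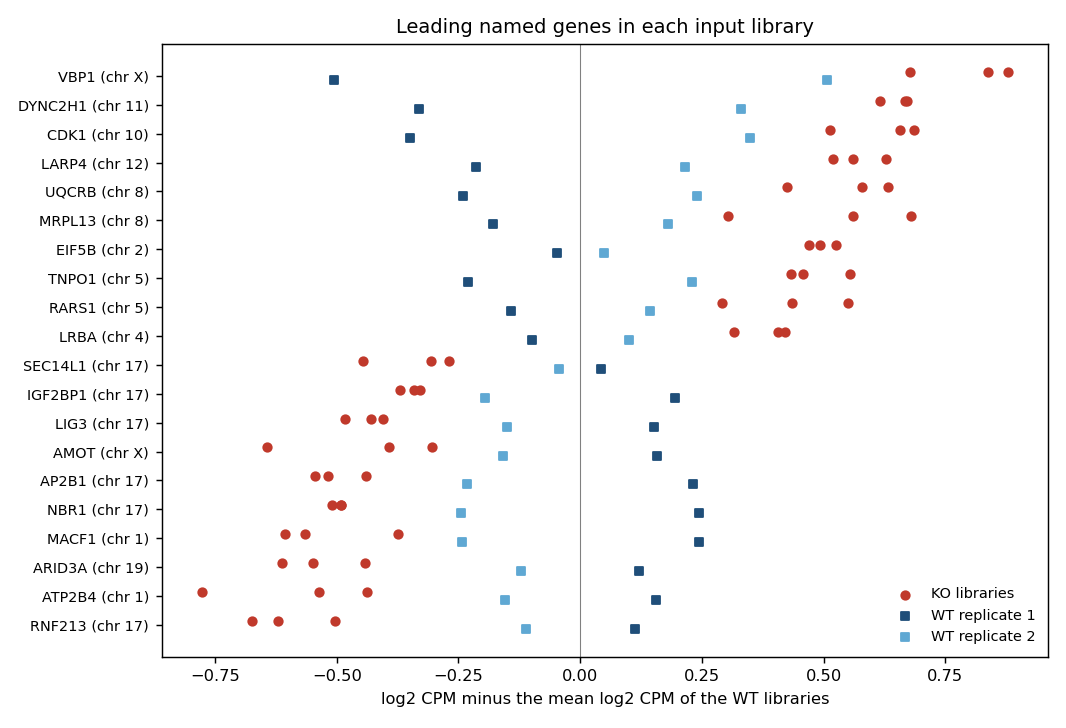
Level of the 10 higher and 10 lower leading named genes in each library, as log2 CPM minus the mean log2 CPM of the WT libraries (x axis), with genes and their chromosomes down the y axis. Red points are the KO libraries and squares are WT replicate 1 (dark) and WT replicate 2 (light). The genes were chosen so that the KO points lie beyond both WT squares. For every gene the nearer square is WT replicate 2.

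RNF213 encodes a very large E3 ubiquitin ligase with an ATPase ring. It had 190, 214 and 198 CPM in KO and 329 and 281 CPM in WT, and its mean was 201 ± 12.3 CPM in KO (SD, n = 3) and 305 ± 33.3 CPM in WT (SD, n = 2). Every KO library was well below both WT libraries, where the choice of leading genes required only that it be lower. The log2 fold change was -0.60 ± 0.10, a level at 65.9% of WT, and it did not pass the threshold (edgeR adjusted p = 0.0955). It passed with DESeq2 (adjusted p = 0.00564) and with WT replicate 1 left out (edgeR log2 fold change -0.49, adjusted p = 0.00308), and its adjusted p ran up to 0.658 when KO replicate 1 was left out. Over the WT libraries apart the log2 ratios were -0.71 and -0.49.

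AP2B1, the beta subunit of the AP-2 clathrin adaptor, had 220, 233 and 216 CPM in KO and 370 and 269 CPM in WT. LIG3, which encodes DNA ligase III, had 163, 157 and 165 CPM in KO and 243 and 197 CPM in WT. NBR1, a receptor for selective autophagy, had 87.7, 88.9 and 88.9 CPM in KO and 148 and 106 CPM in WT. In all 3 genes the KO libraries lay close together below WT replicate 2, and WT replicate 1 stood further up. Their log2 fold changes were -0.52, -0.45 and -0.52, with edgeR adjusted p-values of 0.360, 0.360 and 0.449. The ratio over WT replicate 1 was -0.73 for AP2B1 and -0.74 for NBR1, and over WT replicate 2 it was -0.27 and -0.25, so most of the fitted difference came from WT replicate 1. SEC14L1, a lipid-binding protein of the SEC14 family, differed about equally from both: 198, 180 and 203 CPM in KO and 253 and 238 CPM in WT, with log2 ratios of -0.38 and -0.30.

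IGF2BP1, an RNA-binding protein counted among the readers of m6A, had 635, 618 and 630 CPM in KO and 913 and 697 CPM in WT. MACF1, which links actin to microtubules, had 191, 218 and 185 CPM in KO and 334 and 239 CPM in WT. AMOT, a scaffold of tight junctions and of the Hippo pathway, had 510, 428 and 542 CPM in KO and 747 and 599 CPM in WT. Groups without overlap were a condition of the choice of these genes, and again WT replicate 1 was the higher WT library. ATP2B4, a calcium pump of the plasma membrane, had log2 ratios of -0.73 over WT replicate 1 and -0.42 over WT replicate 2. For ARID3A, a DNA-binding protein of the ARID family, they were -0.65 and -0.41.

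Seen across the genome, most named genes on chromosome 17 had a lower mean level in KO than in each WT library. Of the 84, 77 had a log2 fold change below 0 (named genes 48.1%), 67 had a KO mean below WT replicate 1 (named genes 49.5%) and 76 below WT replicate 2 (named genes 39.7%). The median log2 fold change was -0.16, a level at 89.3% of WT, and the median was 0.02 over the 1312 named genes on other chromosomes. The median ratio was -0.14 over WT replicate 1 and -0.14 over WT replicate 2. All KO libraries lay below both WT libraries for 35 of the 84 (named genes 8.95%, all genes 13.5%) and above both for 2 (named genes 14.2%, all genes 10.7%). At an unadjusted p under 0.05, 24 were lower (named genes 6.95%) and 0 higher (named genes 6.09%), and edgeR called 0 after adjustment. Chromosome 17 was singled out after these values were seen, so they are given as a description with no test. These are RNA data, and the DNA copy number of the chromosome in the KO and WT cells was not tested.

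**Figure D2:**
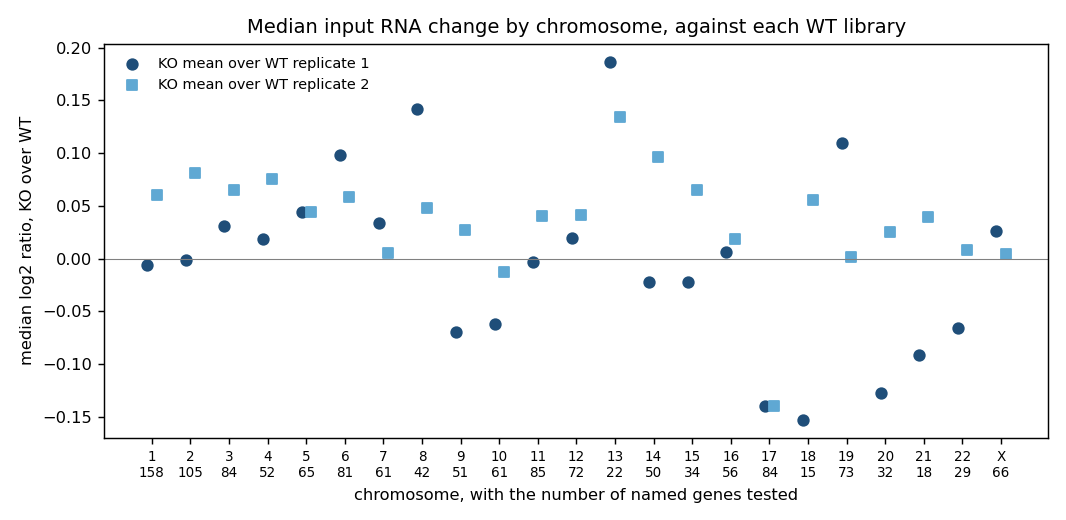
Median log2 ratio of the KO mean to WT replicate 1 (dark circles) and to WT replicate 2 (light squares) for the named genes of each chromosome (x axis, with the number of genes). Chromosome 17 is at -0.14 over both WT libraries, and no other chromosome is below -0.05 over both. Chromosome 13, with 22 genes, is highest at 0.19 and 0.13.

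The same values were also split by library, as deviations from each gene's mean over all the libraries. A lower value in KO then goes with a higher value in WT, so these medians restate the difference between the groups. The median of the 84 genes, as deviation of log2 CPM from the gene's mean and relative to the other named genes, was -0.11, -0.08 and -0.03 in the KO libraries and 0.09 and 0.11 in the WT libraries. The groups did not overlap. The 2 WT medians were nearly equal, as were the WT median deviations over the other named genes (-0.0054 and -0.025). Single genes of the chromosome still differed between the WT libraries, such as KPNB1, picked after its values were seen, at 630 and 400 CPM. Chromosome 17 had the lowest median of 23 chromosomes in 10 of 11 settings. Without WT replicate 2 it was the next to lowest, at -0.11, above chromosome 18 at -0.12, which has 15 named genes. Without WT replicate 1, 76 of the 84 genes were lower, 71 of them among the 77, and 1, RNF213, was called (named genes 0.0716%). Without WT replicate 2, 61 were lower, all among the 77, with 26 called lower (named genes 12.9%) and 2 called higher (named genes 13%).

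The lower levels ran along the whole chromosome. In the 42 named genes nearest the short-arm end, 39 were lower with a median of -0.16, and in the other 42, 38 were lower with a median of -0.16. They were also found in both kinds of start. The 45 genes with an m6Am start had a median of -0.12 and 40 were lower, and the 39 genes with another start had a median of -0.26 and 37 were lower. Among the 28 genes of highest mean level the median was -0.12, and among the 28 of lowest mean level it was -0.23.

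**Figure D3:**
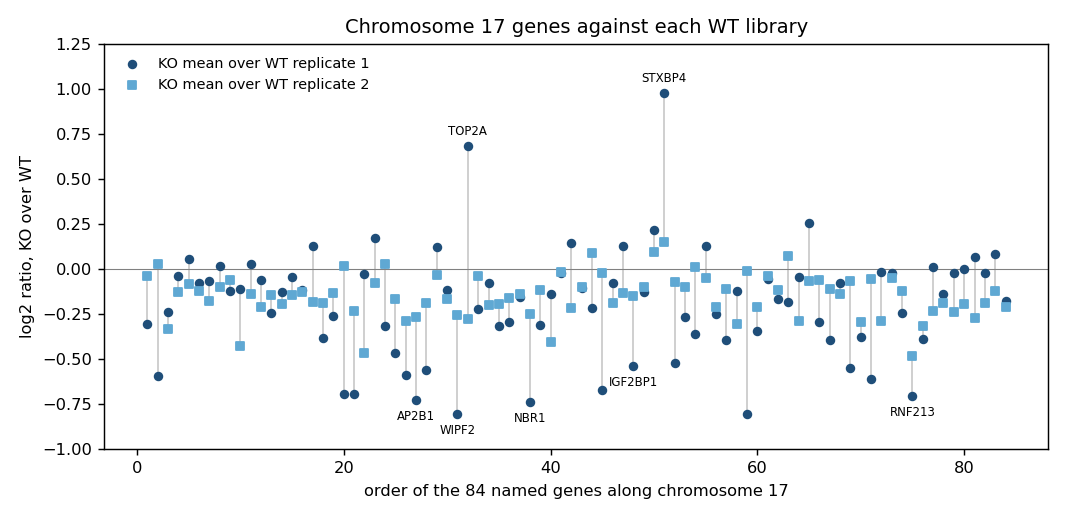
Log2 ratio of the KO mean to WT replicate 1 (dark circles) and to WT replicate 2 (light squares) for the 84 named genes of chromosome 17, in their order along the chromosome (x axis). Grey lines join the 2 ratios of a gene. Squares lie below 0 for 76 genes and circles for 67, and the circles scatter more widely than the squares.

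By function, the lower genes of chromosome 17 were mixed. Apart from the leading genes above, the genes of chromosome 17 named from here on were chosen after their values were seen. Of the cytosolic enzymes that make fatty acids, ACLY, which produces acetyl-CoA from citrate, had 698, 858 and 723 CPM in KO and 948 and 869 CPM in WT. ACACA, acetyl-CoA carboxylase, had 50.1, 40.3 and 46.5 CPM in KO and 67.6 and 52.0 CPM in WT. FASN, the fatty acid synthase, near the long-arm end of the chromosome, had 1681, 1862 and 1884 CPM in KO and 1709 and 1971 CPM in WT. KO lay below both WT libraries for ACLY and ACACA (log2 fold changes -0.26 and -0.39), while FASN overlapped (-0.02), and none passed (edgeR adjusted p 0.513, 0.515 and 0.943).

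Nuclear proteins showed the same spread. CHD3, a chromatin remodeller of the NuRD complex, had 349, 353 and 365 CPM in KO and 423 and 393 CPM in WT. BAHCC1, a chromatin-associated protein with a BAH domain, had 138, 125 and 140 CPM in KO and 176 and 167 CPM in WT, so its ratios of -0.39 and -0.32 were alike over both WT libraries. FTSJ3, a methyltransferase of ribosomal RNA processing, had 268, 271 and 281 CPM in KO and 347 and 317 CPM in WT. In these 3 genes every KO library was below every WT library. KPNB1 (importin beta 1), SRSF1 (a splicing factor) and DDX42 (an RNA helicase) were lower only against WT replicate 1, with ratios of -0.68, -0.36 and -0.81, and their ratios over WT replicate 2 were -0.02, 0.01 and -0.01.

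Of the 84 named genes on the chromosome, 7 had a log2 fold change above 0. STXBP4, a syntaxin-binding protein, had 16.9, 17.8 and 18.1 CPM in KO and 8.68 and 15.8 CPM in WT. LUC7L3, a splicing factor related to yeast Luc7, had 49.4, 54.9 and 47.6 CPM in KO and 43.6 and 47.4 CPM in WT. These were the 2 named genes above both WT libraries in every KO library, the second by a narrow margin. TOP2A, the topoisomerase of dividing cells, had 63.7, 71.6 and 73.5 CPM in KO and 43.1 and 84.5 CPM in WT, so the KO libraries lay between the WT libraries and the sign of its change depended on which was used (0.69 and -0.28). RPL38, NF1, RPL23 and CLTC had log2 fold changes of 0.04 to 0.09 with overlapping groups. Their ratios were above 0 over WT replicate 1 and below 0 over WT replicate 2. AURKB, a mitotic kinase, was among the lower genes, with a log2 fold change of -0.10 and overlapping groups.

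The leading named genes with a higher level were spread over 8 chromosomes, and none passed the adjustment (edgeR adjusted p 0.449 to 0.488). EIF5B, which joins the ribosomal subunits at the start codon, differed most evenly: 33.9, 33.1 and 32.6 CPM in KO and 22.8 and 24.3 CPM in WT, with log2 ratios of 0.53 and 0.44. RARS1, the arginyl-tRNA synthetase, had 111, 103 and 92.9 CPM in KO and 68.8 and 83.8 CPM in WT. TNPO1, the nuclear import receptor transportin-1, had 138, 127 and 129 CPM in KO and 79.9 and 110.0 CPM in WT. These 3 genes are in the m6Am class, and groups without overlap were a condition of their choice. CDK1, the kinase that drives entry into mitosis, had 55.9, 54.7 and 49.6 CPM in KO and 27.3 and 44.2 CPM in WT. VBP1, a prefoldin subunit, had 70.1, 72.1 and 62.8 CPM in KO and 27.6 and 55.7 CPM in WT. For both, WT replicate 1 was far below WT replicate 2, and the log2 ratio of 0.96 over WT replicate 1 for CDK1 compared with 0.27 over WT replicate 2, and of 1.29 with 0.29 for VBP1. DYNC2H1 (the motor of ciliary dynein), LARP4 (a poly(A)-tail-binding La-related protein), UQCRB and MRPL13 (mitochondrial respiratory and ribosomal proteins) and LRBA (a BEACH-domain trafficking protein) also had WT replicate 1 as the lower WT library, with ratios of 0.48 to 0.97 over it and 0.28 to 0.35 over WT replicate 2.

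Most genes for cytosolic ribosomal proteins, the respiratory chain and histones had a log2 fold change above 0, and in each of these lists WT replicate 1 was the lowest library and KO replicate 3 the highest. No member of any list passed the adjustment over all genes with edgeR. Of 36 named cytosolic ribosomal protein genes, 34 had a log2 fold change above 0 (named genes 51.9%), 13 were above both WT libraries in every KO library (named genes 14.2%) and 0 were below both. Their median ratio was 0.25 over WT replicate 1 and 0.05 over WT replicate 2, beside 0.00 and 0.03 for all named genes. By library, the median deviation of their log2 CPM from the gene mean was 0.03, -0.02 and 0.16 in KO and -0.18 and 0.02 in WT, so KO replicate 2 lay below WT replicate 2. RPL31 had 131, 119 and 117 CPM in KO and 97.9 and 101 CPM in WT, and RPL24 had 174, 171 and 174 CPM in KO and 129 and 155 CPM in WT. RPL31 differed about equally from both WT libraries (0.31 and 0.28), unlike RPL24 (0.42 and 0.15). RPS27L, the ribosomal protein S27 paralog singled out after its values were seen, had the largest log2 fold change of the list, 0.36 ± 0.20, at 16.8 to 26.2 CPM over the 5 libraries (edgeR adjusted p = 0.580).

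Of 30 named genes of the nuclear-encoded respiratory chain, 27 had a log2 fold change above 0 (named genes 51.9%), 6 were above both WT libraries (20%, named genes 14.2%) and 0 below both. Their median ratios were 0.23 over WT replicate 1 and 0.01 over WT replicate 2, and 14 of the 30 were below WT replicate 2. The median deviations were -0.0044, -0.011 and 0.14 in KO and -0.19 and 0.03 in WT, so 2 of the KO libraries lay below WT replicate 2. UQCRB, a subunit of complex III, had 75.3, 65.3 and 72.6 CPM in KO and 41.2 and 57.4 CPM in WT. ATP5PB, a subunit of the ATP synthase stalk, had 84.5, 69.9 and 75.7 CPM in KO and 55.6 and 65.0 CPM in WT. Both had every KO library above both WT libraries. The largest difference the other way was in SDHC, a membrane subunit of complex II singled out after its values were seen, with 98.7, 105 and 97.8 CPM in KO and 156 and 104 CPM in WT, so that only WT replicate 1 stood apart. Replication-dependent histone genes, whose messages mostly lack a poly(A) tail, had medians of 0.23 over WT replicate 1 and 0.00 over WT replicate 2 for 28 genes, with 3 above both WT libraries (10.7%, named genes 14.2%) and 0 below. Their median deviations were -0.13, 0.02 and 0.21 in KO and -0.18 and 0.03 in WT, so the KO libraries lay on both sides of WT replicate 2. Several histone genes are near-identical copies, and how the authors' counting shared reads among them is not stated.

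The remaining lists held fewer named genes. Of 18 cell cycle genes, 12 had a log2 fold change above 0 (named genes 51.9%) and 5 were above both WT libraries (27.8%, named genes 14.2%), among them CDK1, CDT1, a licensing factor of replication (264, 264 and 271 CPM in KO and 219 and 250 CPM in WT), and CCNB1, cyclin B1 (277, 248 and 275 CPM in KO and 224 and 244 CPM in WT), of which CCNB1 was singled out after its values were seen. Of 8 genes for cap synthesis, cap binding and related proteins, 6 had a log2 fold change below 0 (median of the list -0.01), and the other 2 were above both WT libraries (25%, named genes 14.2%): LARP4 and EIF4A2, a helicase of the cap-binding complex. EIF4A2 had 162, 142 and 175 CPM in KO and 118 and 142 CPM in WT, so the lowest KO library barely exceeded WT replicate 2. Of 11 heat shock protein genes, 7 had a log2 fold change above 0 (named genes 51.9%) and 2 were above both WT libraries (18.2%, named genes 14.2%), and HSP90AA1 had 173, 180 and 184 CPM in KO and 118 and 169 CPM in WT. HSPH1, a co-chaperone, had KO libraries on both sides of WT replicate 2.

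The next genes come from lists of decapping, m6A and m6Am enzymes, stress, sensing and other functions, and none passed with edgeR. DCP2, the catalytic subunit of the decapping enzyme, had 100.2, 107 and 88.7 CPM in KO and 59.6 and 86.2 CPM in WT (log2 fold change 0.44, edgeR adjusted p = 0.513). Its KO libraries were all above both WT libraries, the lowest of them by a small margin. LSM7, a subunit of the ring that binds shortened messages before decapping, overlapped between groups (0.27, edgeR adjusted p = 0.547). FTO, the demethylase that acts on m6Am and m6A, had 132, 127 and 122 CPM in KO and 158 and 115 CPM in WT, between the WT libraries. For the stress and sensing genes ATF4, SLC7A5, ADAR, MAVS and MDM2 the log2 fold changes were -0.14 to 0.06, and the edgeR adjusted p-values were 0.664 to 0.922. JUN, the immediate early gene that could be named, had 315, 237 and 364 CPM in KO and 212 and 279 CPM in WT, with KO replicate 2 inside the WT range. FDFT1, an enzyme of cholesterol synthesis, had a log2 fold change of 0.09.

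Across start classes, the medians of the authors' m6Am class and A class differed by no more than a few hundredths of a log2 unit. The 501 m6Am genes had a median log2 fold change of 0.04, the 389 A genes 0.01, the 146 C genes -0.03, the 264 G genes -0.04 and the 96 T genes -0.01. Over WT replicate 1 the medians were 0.04 for m6Am and 0.00 for A, and over WT replicate 2 they were 0.05 and 0.04. KO libraries were all above both WT libraries for 79 m6Am genes (15.8%) and 54 A genes (13.9%), beside 14.2% of named genes. They were all below both for 27 m6Am genes (5.39%) and 33 A genes (8.48%), beside 8.95% of named genes. Off chromosome 17 the medians were 0.05 for 456 m6Am genes and 0.02 for 374 A genes, beside 0.02 for named genes there. The log2 fold change was below 0 for 35.1% and 45.7% of them (named genes there 45.3%). All KO libraries lay above both WT libraries for 17.1% and 14.2% (14.9%), and below both for 3.29% and 6.95% (6.86%). The class mix differs between the deposited tables that list the genes. Among genes of the authors' translational efficiency table the medians were 0.04 for 416 m6Am genes and 0.04 for 201 A genes. Among genes of the SLAM-seq table alone they were -0.01 for 85 and -0.05 for 188. A region of the authors' m6Am list was assigned to 347 of the 501 m6Am genes and to 1 of the 389 A genes.

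**Figure D4:**
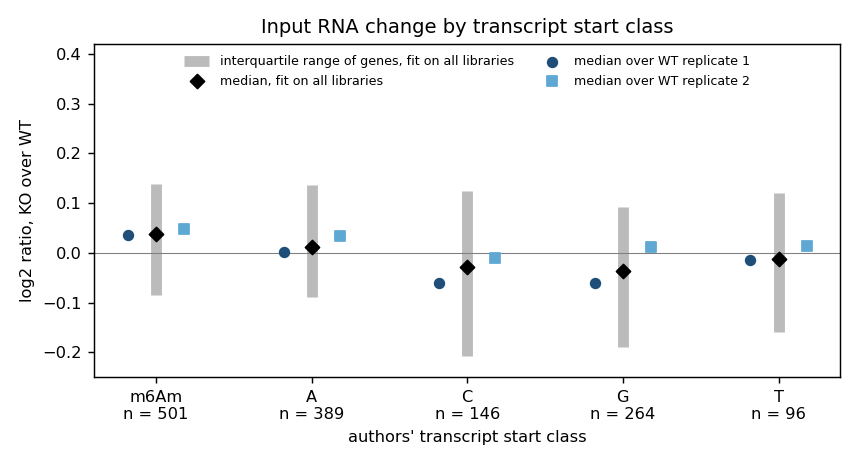
Median log2 fold change of named genes by the authors' transcript start class (x axis, with the number of genes). Black diamonds are medians of the fit on all libraries, grey bars span the interquartile range of the genes, and blue symbols are medians over WT replicate 1 and WT replicate 2. All medians lie between -0.06 and 0.05, well inside the grey bars.

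The difference between the WT libraries followed the length of the gene in the genome. Named genes were split by their RefSeq span into 4 classes of about equal size, with boundaries at 16.3, 43.8 and 103 kb. The median ratio over WT replicate 1 was 0.11 in the shortest class and -0.14 in the longest, while over WT replicate 2 it was 0.03 and 0.02. WT replicate 1 itself deviated from the gene means by -0.08 in the shortest class and 0.13 in the longest, and KO replicate 3 by 0.09 and -0.08. On chromosome 17 the medians over WT replicate 1 also fell with span, at -0.05, -0.14, -0.30 and -0.46, but over WT replicate 2 they were -0.14, -0.16, -0.13 and -0.19 in the 4 classes. The longest classes on chromosome 17 hold only 17 and 12 genes. The ribosomal protein genes named here took 1.01% of the counts in WT replicate 1, against 1.18% in WT replicate 2 and 1.17% to 1.29% in the KO libraries. What else differed between the libraries along with span was not tested. By the number of m6A sites in the WT site list, genes with none had a median of 0.14 over WT replicate 1 and 0.04 over WT replicate 2, and genes with at least 5 had -0.04 and 0.03. Sites were counted on either strand between a gene's start and end, so a longer gene can hold more. Site number was not separated from span.

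**Figure D5:**
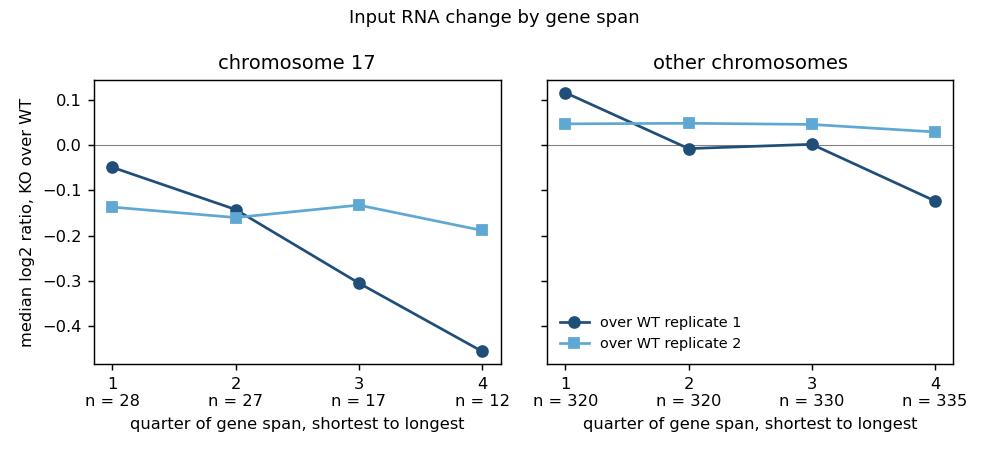
Median log2 ratio of the KO mean to WT replicate 1 (dark circles) and WT replicate 2 (light squares) by class of gene span, shortest to longest (x axis, with the number of genes), for chromosome 17 (left) and the other chromosomes (right). The line over WT replicate 1 ends lower than it starts in both panels, and the line over WT replicate 2 changes little, at -0.13 to -0.19 on chromosome 17 and 0.03 to 0.05 elsewhere.

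Other readouts of the same genes were available for some. In the libraries of ribosome-protected fragments, which list 785 genes, 32 of 50 chromosome 17 genes were lower in KO with a median log2 difference of -0.18, and 444 of all 785 were lower with a median of -0.06. The median over the fragment WT libraries apart was -0.30 and -0.18 for chromosome 17 and -0.10 and -0.02 for all listed genes. In the authors' deposited translational efficiency table, the median log2 fold change of chromosome 17 genes was -0.02, beside -0.01 for all listed genes, and efficiency is taken relative to this input RNA. In the same authors' deposited table, MRPL13 (-1.41), VBP1 (-1.46) and CDK1 (-1.14) had lower efficiency in KO without passing its adjusted p (0.171, 0.260 and 0.487). These genes were chosen for a higher input level in KO, which by itself lowers the efficiency, so their values are not a separate readout. Among other genes described above, ATF4 had lower efficiency in KO (-1.24, authors' adjusted p = 0.0225) and VIM higher (0.73, authors' adjusted p = 0.0452). The authors' deposited SLAM-seq table gives 1 KO over WT ratio per gene with no replicate. Of the leading lower genes it held RNF213 at 0.881, AP2B1 at 0.907, LIG3 at 0.863, NBR1 at 0.316, MACF1 at 1.12, SEC14L1 at 1.15 and ATP2B4 at 1.86. The median was 0.888 over 655 named genes and 0.987 over the 34 of them on chromosome 17.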

How the data were processed

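The deposited input table holds raw read counts per versioned Ensembl gene, with 1 column per library and nothing normalized, per the file headers and the whole-number values. Its 5 columns matched the sample titles, and 0 columns were left over. Per the submitters' processing notes, the tools are BWA 0.7.17, STAR, bedtools and deepTools, and the builds mm10, GRCh38 and hg38, with no role for any. The counter and its strand setting are not stated. Reads from overlapping genes on opposite strands may therefore not be told apart. Per the file headers, log2 fold changes and adjusted p-values make up the deposited efficiency table, and a ratio per gene the SLAM-seq table. The scores of the authors' m6Am regions were used only to place regions, within 50 nt of a gene's start. The fragment table holds counts of 785 genes, whose selection is not stated.

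Counts were tested in edgeR 4.0.16 (R 4.3.3) with filterByExpr, TMM factors and robust glmQLFit. The quasi-likelihood test compared KO with WT, two-sided, with p-values adjusted by Benjamini-Hochberg over 14629 genes at 0.05. The SE given with a log2 fold change is its absolute value divided by the square root of the F statistic. It is an approximation, as the fit itself gives no SE. The step was checked on simulated data. With 3 against 2 libraries, the 10 arrangements of the labels allow an exact permutation p of at least 0.1, so no test of a single value was run. Ratios over each WT library used the mean CPM of the KO libraries with 0.5 CPM added on both sides, and have no test. Fragment counts were scaled to the total of the listed genes, and their ratios are differences of mean log2 values after adding 50.

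The reference gene table (RefSeq, GRCh38.p14) holds 0 Ensembl identifiers, so genes were named through the accessions in the authors' class tables: 1424 of 1431 entries matched, 73 of them under another symbol, giving 1396 of the tested genes a name and leaving 13233 without. The rule for named genes took, among named genes of at least 5 CPM with all KO libraries on one side of both WT libraries, the 10 higher and 10 lower with the smallest p, and the 2 members of each list with the smallest p. It had been written for all genes, and was applied to those with a name. Of 21 lists and marker sets, 14 had a named member. Mitochondrially encoded genes, HOX genes and clustered protocadherins had none. Members and lists were chosen with earlier results of these data known. The same-numbered libraries correlated at 0.16 (replicate 1) and -0.003 (replicate 2) in their deviations. Deviations of 2 WT libraries from their mean mirror each other, and KO replicate 3 correlated at -0.15 with WT replicate 1. These values therefore cannot tell whether libraries were paired. The fit has no replicate block because the labels do not say that a number marks a shared culture. Alternatives were other scaling factors, filters and dispersions, DESeq2 1.42.0, the replicate block, another prior and leaving out each library. Tables and plots were made with matplotlib 3.10.9, numpy 2.4.6 and pandas 2.3.3 in Python 3.11.15.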

Additional observations from a re-analysis of the deposited data

How the results depend on the processing

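The count of called genes, 5 with edgeR, was 152 with no filter on low counts, 15 with DESeq2 and 3 with the replicate block. It ran over 2 to 1912 when 1 library was left out: 53 without WT replicate 1, 1912 without WT replicate 2, 2 without KO replicate 1, 8 without KO replicate 2 and 3 without KO replicate 3. The 5 genes were all among those called with no filter and with DESeq2, and 3 of them with the replicate block. Only 2 of the 5 were still called without KO replicate 1, 3 without KO replicate 2 and 3 without KO replicate 3. With 1 WT library left, that library is assumed to vary like the KO libraries. The chromosome 17 median of -0.16 was -0.11 with upper-quartile factors and -0.17 to -0.11 with 1 library left out. The m6Am median of 0.038 was 0.056 with DESeq2's size factors, 0.086 with upper-quartile factors, 0.055 with a mean of at least 5 CPM, 0.019 with the replicate block and 0.035 to 0.067 with 1 library left out. The genes at least 1.5-fold lower or higher than both WT libraries, 181 and 89, were 70 and 24 with a prior of 2 CPM. The cause of these changes was not tested.

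Of the 1396 named genes, 469 turned sign without WT replicate 1 and 162 without WT replicate 2, 11 and 16 of them on chromosome 17. The replicate block turned 149, upper-quartile factors 153. Alternatives were followed gene by gene for 71 genes, of which 8 turned without 1 of the WT libraries. Their log2 fold changes with 1 library left out ran over -0.27 to 0.045 for ADAR, -0.25 to 0.17 for MDM2, -0.29 to 0.15 for FTO, -0.0059 to 0.10 for SLC7A5, -0.032 to 0.083 for VIM, -0.28 to 0.72 for TOP2A, -0.33 to 0.011 for SRSF1 and -0.12 to 0.11 for FASN. FASN also turned with upper-quartile factors (0.023) and without KO replicate 1 (0.038), and VIM with the replicate block (-0.0054). The replicate block changed no call among the 71, and no other of them turned under the alternatives run. Depth limits genes such as STXBP4, USP27X and RPS27L, with few counts per library.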
